A study of Arabidopsis thaliana with 10 samples.

Results

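The small RNA libraries of the study profiled mature microRNAs (miRNAs) in Arabidopsis thaliana of the Ler ecotype, from whole seedlings aged 5 days. Seedlings homozygous for fve-8 were set against E5-4, the genotype that serves as their wild type (WT), with 2 libraries per genotype. FVE belongs to a family of histone-binding WD40 proteins and is best known from flowering, where it lowers the activity of the floral repressor gene FLC. The series title links it to transgene silencing by SGS3, DRB4 and DCL4, which act in a pathway that makes small interfering RNAs from double-stranded RNA. Both genotypes grew on MS medium without any treatment, and what the E5-4 line carries is not given in the labels. The labels also do not say whether the 2 libraries of a genotype came from separate cultures, so p-values measure the spread between libraries, which may be technical.

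Plant miRNAs are cut from hairpin precursors by the Dicer protein DCL1 with the help of HYL1 and SERRATE, methylated by HEN1 and loaded into the Argonaute protein AGO1. They guide cleavage or translational repression of transcripts that pair with them along nearly their whole length. Old families, shared across land plants, act mostly on transcription factors of development and on genes of nutrient balance, while many younger families are specific to crucifers. DCL4, DRB4 and SGS3 act in other small RNA pathways and are not needed for most miRNAs.

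All 428 entries of the small RNA table, each a mature miRNA identifier of the miRBase registry, were taken as members, and they are the whole of that table. Neither the deposited files nor the RefSeq gene table pairs these identifiers with names or sequences, so that no family name is given to any of them here. Some entries had the same or nearly the same counts in all 4 libraries and may share reads. Where each of the 4 counts of 2 entries differed by at most 2% or 2 counts and the entries had at least 100 counts over the libraries, they were treated as one RNA. This merged 109 entries into 39 RNAs, the largest from 9 entries, and left 358 RNAs. Of the 428 entries 37 had 0 counts in every library and 205 had fewer than 100 in all.

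Merged totals were 201161 and 219893 counts in the fve-8 libraries, against 653174 and 516042 in the WT libraries. They hold mature miRNA reads only, so sequencing depth and the miRNA part of the reads cannot be told apart. In bulk seedlings, fewer cells of a type and less of an RNA per cell cannot be told apart either. The fve-8 libraries held counts on 272 and 269 RNAs and the WT libraries on 301 and 305. A count of 0 allows up to 3 counts, which is 13.3 and 14.9 CPM (the usual depth-normalised count scale, here with library sizes adjusted by TMM, the trimmed mean of M-values) in fve-8 and 4.82 and 5.74 CPM in WT, where such floors cover counting error only. Replicate libraries were not copies of each other, since chi-square over its degrees of freedom came to 18.95 between the fve-8 libraries and 27.9 between the WT libraries, and each was kept as its own sample. The RNA libraries of the same study, 3 per genotype, give the one check of the genotypes. There FVE (AT2G19520) stood at 5.40 to 6.61 CPM in fve-8, against 8.67 to 9.97 CPM in WT (log2 fold change -0.65 ± 0.14, SE, edgeR adjusted p = 0.0184). The leaf gene LHCB1.1 (1580 to 1917 CPM in fve-8, 2257 to 2518 CPM in WT) and the root endodermis gene CASP1 (20.6 to 24.6 CPM in fve-8, 35.4 to 37.5 CPM in WT) were both detected, and both were called lower in fve-8 (log2 fold changes -0.46 and -0.71, edgeR adjusted p = 0.0496 and 0.00402). The small RNA table holds no gene that could check a label.

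A small set of miRNAs was several times more abundant in fve-8 seedlings, while most of the tested RNAs were not called different. With 2 libraries per genotype, a missing call does not show that a level was unchanged. Of the 202 RNAs with enough counts to be tested, 15 rose and 5 fell in fve-8 (edgeR quasi-likelihood test, adjusted p below 0.05), which is 9.90% of those tested (7.43% higher and 2.48% lower). The rises were the larger changes, as 14 of the 15 were at least 2-fold and 7 at least 8-fold, whereas 4 of the 5 falls reached 2-fold and 0 reached 8-fold. These counts include R3 and R8 (named below), which rested on very few reads and passed the count filter through fve-8 alone. R3 is among the 7. The 15 RNAs together took 4.36% and 3.88% of the fve-8 counts, against 1.26% and 1.18% of the WT counts, values that chose them and that are given as a description. Across all tested RNAs the median log2 fold change was -0.03, the quartiles were -0.40 and 0.39, and 119 of 202 lay within 0.5 of 0 in either direction. In 116 RNAs the genotypes did not overlap, 50 of them higher and 66 lower in fve-8 (24.8% and 32.7% of those tested), so that non-overlap between 2 libraries a genotype was far more common than a call, and all 20 called RNAs were among them.

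**Figure D1:**
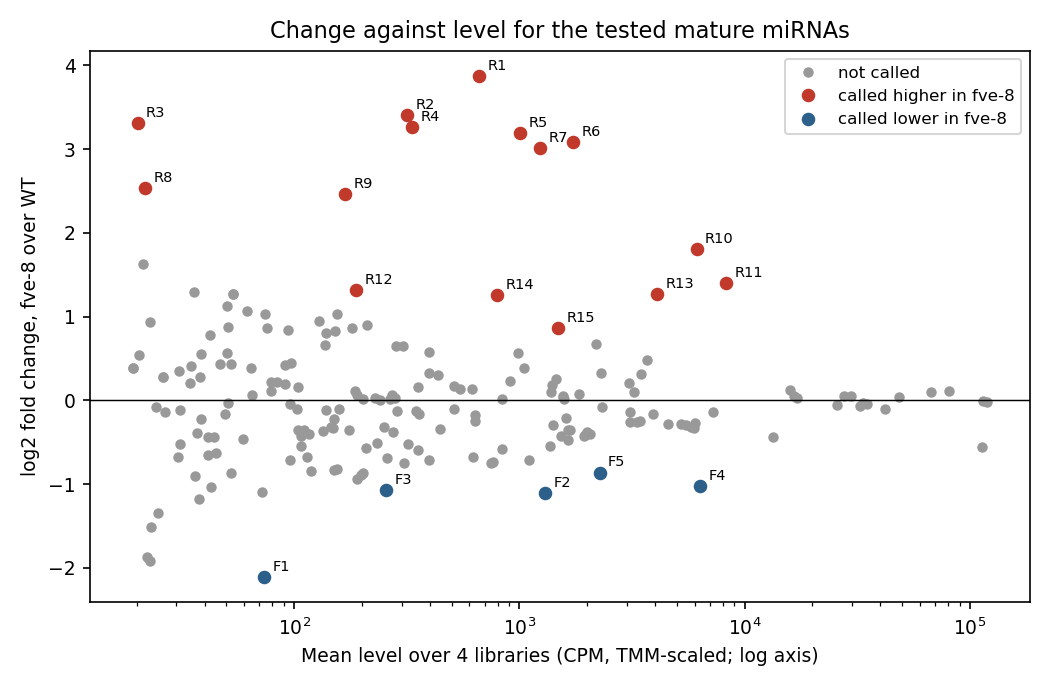
Log2 fold change (fve-8 over WT, vertical axis) against the mean level over the 4 libraries (CPM, log axis) for the 202 tested mature miRNAs. The 15 RNAs that rose (red, R1 to R15) and the 5 that fell (blue, F1 to F5) lie at mean levels under 10000 CPM. The 17 RNAs above that level are grey (not called) and lie between -0.56 and 0.13.

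Each of the 4 libraries was also left out in turn. Such a fit leaves 1 genotype without a replicate, and its single library is assumed to vary like the others. Calls can be lost there through lost power alone, so these fits cannot tell whether a call leaned on 1 library. Only their fold changes are described. Each called RNA kept its direction in every such fit in which it had enough counts to be tested.

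The called RNAs are named R1 to R15 for the rises and F1 to F5 for the falls, in order of the size of the fold change. R1 is a group of 6 entries with the same counts, represented by MIMAT0000938. It stood at 1294 and 1179 CPM in the fve-8 libraries, against 80.4 and 88.1 CPM in the WT libraries. Both fve-8 values were more than 10 times either WT value, from 293 and 238 counts against 50 and 46, although the WT libraries were the larger ones. Its log2 fold change was 3.87 ± 0.31 (SE, edgeR adjusted p = 8.53e-12), and with any 1 library left out it lay between 3.77 and 4.14. By level it was number 63 of the 202 tested RNAs in fve-8 and number 143 in WT.

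R2, the single entry MIMAT0022400, had 592 and 569.6 CPM in fve-8, against 45.0 and 65.1 CPM in WT. Its log2 fold change was 3.40 ± 0.36 (SE, edgeR adjusted p = 1.66e-09). The fve-8 libraries lay close together and the genotypes were far apart. R4, another single entry, was at nearly the same levels, with 569.8 and 639 CPM in fve-8 and 53.1 and 72.7 CPM in WT (log2 fold change 3.27 ± 0.35). In fve-8 the counts were 134 and 115 for R2 and 129 and 129 for R4. In WT they were 28 and 34 for R2 and 33 and 38 for R4. The 2 may share reads and may not be separate rises. Leaving out either fve-8 library ended the calls of R2 and R4, with adjusted p up to 0.0708 and 0.0694.

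The next 3 rises of this size were more abundant RNAs, each a single entry. R5 had 1829 and 1793 CPM in fve-8, against 169 and 228 CPM in WT, a log2 fold change of 3.19 ± 0.29 (SE). R6 had 2721 and 3482 CPM in fve-8, against 418 and 312 CPM in WT (3.08 ± 0.27). R7 had 1661 and 2729 CPM in fve-8, against 269 and 274 CPM in WT (3.01 ± 0.29). These RNAs ranked higher by level in fve-8, where R6 was number 35 against 85 in WT, R7 number 42 against 97 and R5 number 45 against 110. The fve-8 libraries differed from each other most for R7, and both still lay above both WT libraries. Leaving out 1 library gave log2 fold changes of 2.96 to 3.63 for R5, 3.02 to 3.33 for R6 and 2.74 to 3.41 for R7.

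R3 and R8 rested on very few reads. R3 had 10 and 6 counts in fve-8, against 3 and 1 in WT, and a log2 fold change of 3.30 ± 0.83 (SE, edgeR adjusted p = 0.00491). R8 had 9 and 7 counts in fve-8, against 2 and 5 in WT (2.54 ± 0.76, adjusted p = 0.0224). Both passed the count filter through their fve-8 libraries alone, and the WT values of R3 lie at or under the floor that a count of 0 allows there, so its place among the 7 rises of at least 8-fold rests on very few WT reads. The levels of both are low, and their standard errors are the widest of the 15. With 1 library left out, R3 passed the count filter in 2 fits and R8 in 1. R8 was called in 5 of the 11 alternatives that kept all 4 libraries and tested it. R9, at 274 and 297 CPM in fve-8 against 51.4 and 51.7 CPM in WT (2.46 ± 0.39), rested on more reads. Its log2 fold change lay between 2.42 and 2.67 with 1 library left out.

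The other 6 rises, R10 to R15, were smaller in fold and covered a wide range of levels. R10, a single entry, had 7822 and 11184 CPM in fve-8, against 2895 and 2550.0 CPM in WT, a log2 fold change of 1.80 ± 0.25 (SE, edgeR adjusted p = 9.39e-07). R11, a pair of entries, had 13565 and 10461 CPM in fve-8, against 4450 and 4644 CPM in WT (1.40 ± 0.25, adjusted p = 5.28e-05), and was number 17 by level in fve-8 and number 26 in WT. In fve-8 these 2 had the highest levels of the 15. R12, also a pair of entries, had 216 and 322 CPM in fve-8, against 108 and 107 CPM in WT (1.32 ± 0.37). The other 3 rises, R13 to R15, had log2 fold changes of 1.27, 1.26 and 0.86, with means of 5785, 1120.0 and 1922 CPM in fve-8, against 2399, 469 and 1055 CPM in WT. In the fits with 1 library left out, the call of R10 was lost without either fve-8 library (adjusted p up to 0.0617), those of R11 and R13 were kept in 1 of 4 and those of R12, R14 and R15 in 0 of 4. R12 was called in 7 of the 12 alternatives that kept all 4 libraries.

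**Figure D2:**
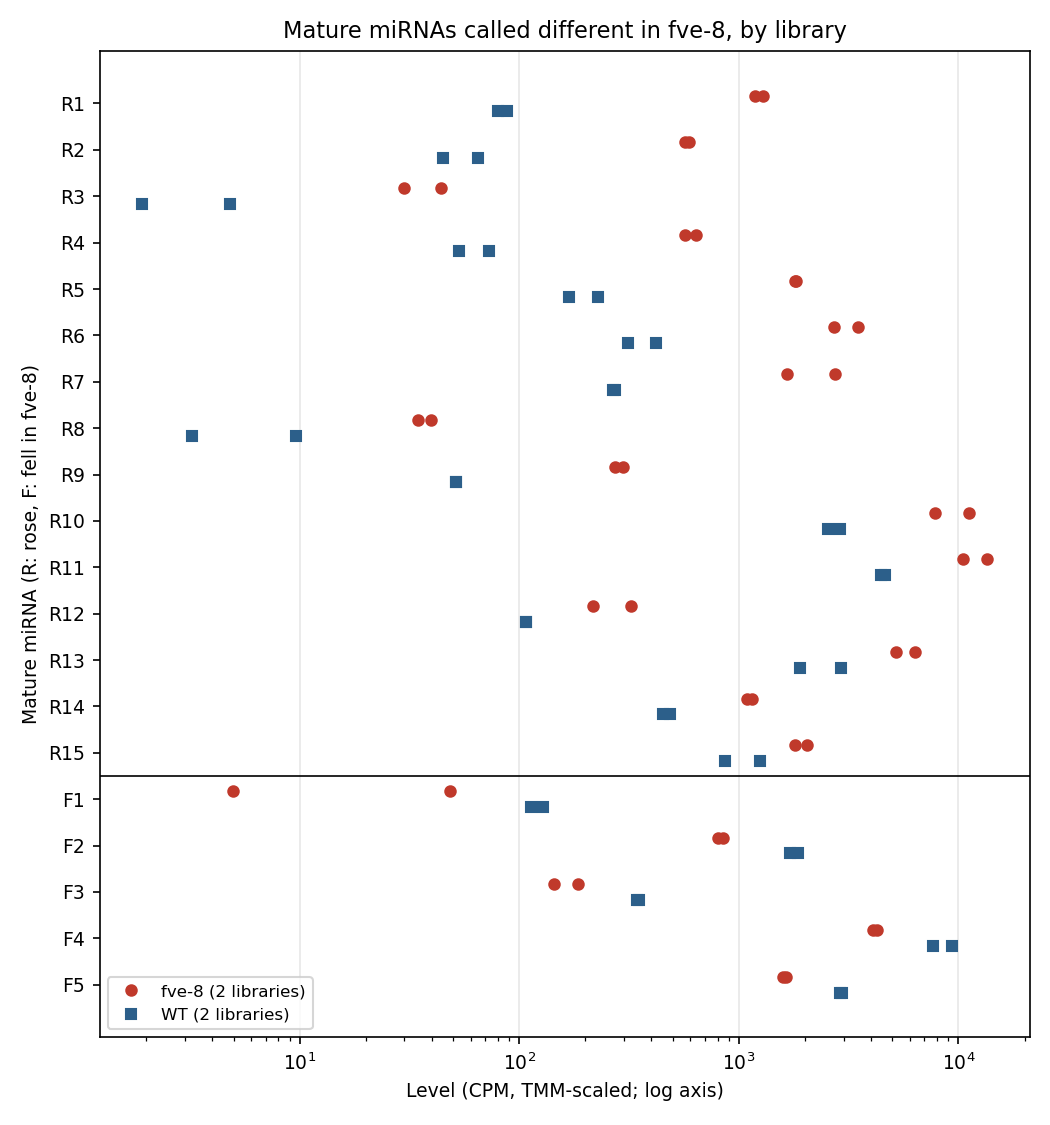
Level (CPM, log axis) of the 15 risen (R1 to R15) and 5 fallen (F1 to F5) mature miRNAs in each library, with the 2 fve-8 libraries as red circles above the 2 WT libraries as blue squares. The genotypes do not overlap in any of the 20 RNAs, and the fve-8 libraries of F1 (48.6 and 4.95 CPM) lie farthest apart.

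The 5 falls had log2 fold changes from -2.11 to -0.86. F1, the single entry MIMAT0032771, had 48.6 and 4.95 CPM in fve-8, from 11 and 1 counts, against 129 and 113 CPM in WT. F1 thus lay under the 14.9 CPM that a count of 0 allows in the second fve-8 library. Its log2 fold change of -2.11 ± 0.57 (SE, edgeR adjusted p = 0.00920) rested on the second fve-8 library, as it was -1.18 without that library and -4.46 without the first. F2, a pair of entries represented by MIMAT0000912, had 804 and 847 CPM in fve-8, against 1852 and 1708 CPM in WT. In F2 the libraries of each genotype lay close together, and its log2 fold change was -1.11 ± 0.25 (adjusted p = 0.00196).

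The most abundant of the fallen RNAs was F4, a single entry at 4245 and 4096 CPM in fve-8, against 7639 and 9352 CPM in WT (log2 fold change -1.03 ± 0.24, SE, edgeR adjusted p = 0.00265). F5 had 1634 and 1585 CPM in fve-8, against 2953 and 2897 CPM in WT (-0.86 ± 0.24). F3 had 186 and 144 CPM in fve-8, against 350.5 and 343 CPM in WT (-1.07 ± 0.34). All 5 were called with all 4 libraries, and with 1 library left out their log2 fold changes stayed between -4.46 and -0.67. Of the 12 alternatives that kept all 4 libraries, F2 and F4 were called in 11, F5 in 9, F1 in 6 and F3 in 3.

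**Figure D3:**
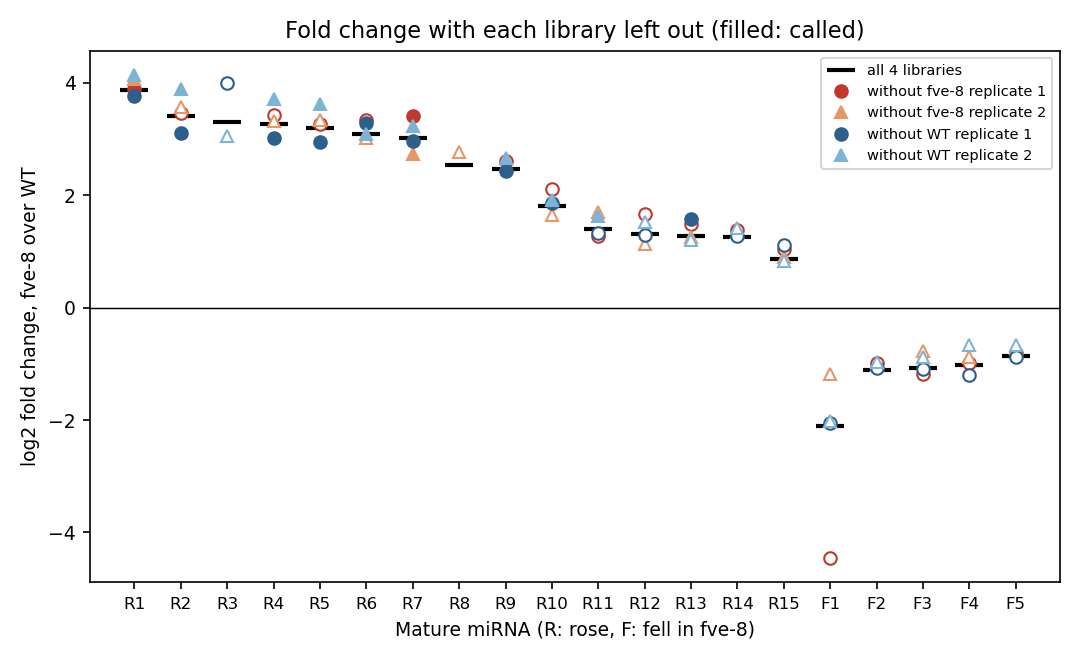
Log2 fold change (fve-8 over WT) of the 20 called mature miRNAs with all 4 libraries (black bars) and with each library left out in turn (red and orange for fve-8, dark and light blue for WT), filled where the adjusted p was under 0.05. R1 and R7 are filled in all 4 fits, F1 to F5 are open in all 4, and no value crosses 0.

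The most abundant miRNAs were not called. Of the 12 RNAs with the highest mean level, edgeR's quasi-likelihood test called 0, and 0 of them reached 0.05 unadjusted. The count was also 0 with limma-voom, with edgeR's likelihood-ratio test and with DESeq2. Together the 12 held 72.0% and 74.6% of counts in the fve-8 libraries, against 74.8% and 74.9% in the WT libraries, a difference in means of -1.57 percentage points (p = 0.333 in an exact permutation test, two-sided, the smallest that 2 against 2 libraries allow). The leading entry, MIMAT0000176, held 11.2% and 12.6% of counts in fve-8, against 10.5% and 13.1% in WT, and its genotypes overlapped. The entry next in order differed from it by 2.43% to 4.57% of counts in each library, so the 2 may share most of their reads. Counts at ranks 8 to 12 also ran in similar proportions over the libraries. Rank 8 had 6594 and 8021 counts in fve-8 and 24766 and 16204 in WT. Rank 9 had 6349 and 7754 counts in fve-8 and 23751 and 15563 in WT. Reads may thus enter the summed share more than once, and the 12 RNAs may not be separate results. The RNA ranked seventh united the 9 entries of the largest merged group, represented by MIMAT0000189, at 34104 and 47380.4 CPM in fve-8, against 45824 and 41430.2 CPM in WT.

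The RNA at rank 3 had the largest difference among these 12. MIMAT0000945, merged with 1 more entry, had 79466 and 103637 CPM in fve-8, against 142844 and 127237 CPM in WT. Both fve-8 values were lower than both WT values, and the RNA held 8.94% and 9.52% of the fve-8 counts, against 13.6% and 12.9% of the WT counts. Its log2 fold change of -0.56 ± 0.28 (SE) was not called (edgeR adjusted p = 0.196). The call depended on how the table was prepared. It was called lower with all entries as deposited (-0.49, adjusted p = 0.00804), with only identical entries merged (-0.48, adjusted p = 0.00638) and with library totals in place of TMM (-0.52, adjusted p = 0.0207), and over all alternatives the adjusted p ranged from 0.00638 to 0.957.

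**Figure D4:**
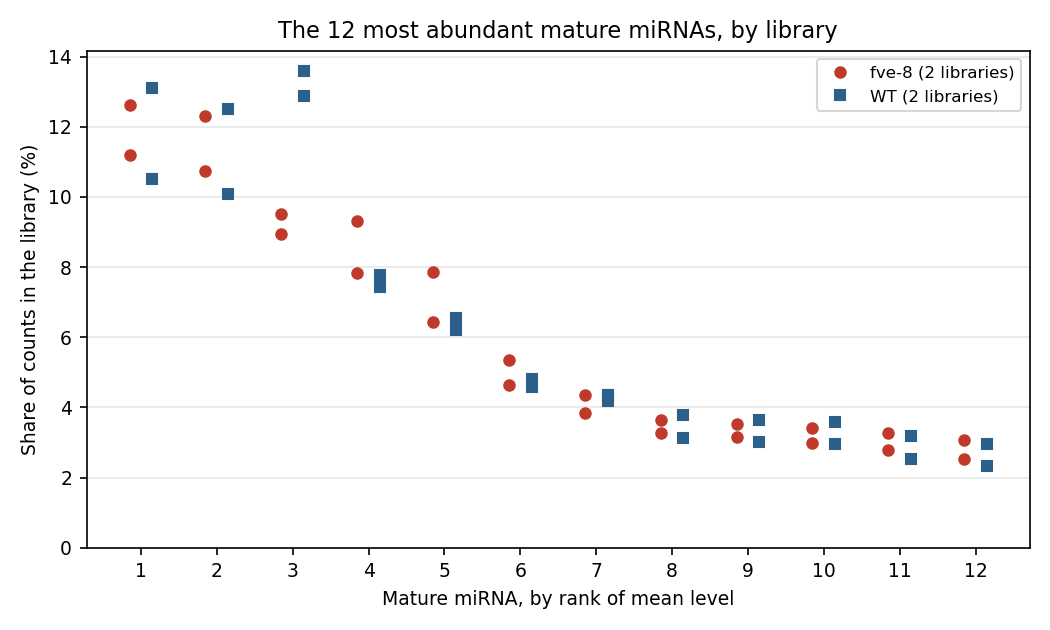
Share of a library's merged miRNA counts (%) held by each of the 12 most abundant mature miRNAs, by rank of mean level, with the 2 fve-8 libraries as red circles left of the 2 WT libraries as blue squares. The RNA at rank 3 is the one whose fve-8 libraries (8.94% and 9.52%) lie farthest below its WT libraries (13.6% and 12.9%).

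Calls were spread over the levels below the most abundant RNAs. Of the 17 RNAs above 10000 CPM, 0 were called, and their log2 fold changes lay between -0.56 and 0.13. Of the 49 RNAs from 1000 to 10000 CPM, 7 rose and 3 fell, of the 75 from 100 to 1000 CPM, 6 rose and 1 fell, and of the 61 under 100 CPM, 2 rose and 1 fell. The standard error of a log2 fold change had a median of 0.26, 0.25, 0.35 and 0.57 in these 4 classes from high to low, so small changes of the rarest RNAs were not detectable at this depth. The fve-8 libraries differed from each other more than the WT libraries in each class, by a median of 0.43 against 0.22 on the log2 scale above 10000 CPM and 0.65 against 0.36 under 100 CPM. They also held fewer counts, and the part of counting error in these differences was not tested. Pearson correlations of log2 CPM over the tested RNAs were 0.975 between the fve-8 libraries, 0.991 between the WT libraries and 0.949 to 0.955 between genotypes, a description across RNAs that are not independent.

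The remaining 156 RNAs did not pass the count filter, and none had more than 45 counts over the 4 libraries. Of these, 37 had 0 counts throughout. In 4 of them both fve-8 libraries had 0 counts and the WT libraries at least 10 together, and 0 RNAs showed the opposite. The one with most reads had 0 counts in both fve-8 libraries, against 14 and 11 in the WT libraries. Its pooled WT level was 3.12 times the fve-8 floor of 3 counts over the group, both scaled by library size. Counting error in WT is left out of this ratio, which was 2.50, 2.37 and 1.25 for the others. Such differences go with the smaller fve-8 libraries, and the part of library size in them was not tested.

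The authors' deposited table gives a fold change and a p-value for 391 of the 428 entries and, counting each entry on its own, lists 21 as higher and 8 as lower at an adjusted p under 0.05. The representing entries of 14 of the 20 RNAs also pass that threshold in the authors' deposited table, in the same direction, and those of 6 do not.

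The RNA libraries of the same genotypes gave a second readout of the miRNA system, in transcripts that RefSeq does name. Loci annotated as miRNA genes were sparsely counted, as 178 of the 326 in the RefSeq table were listed, 81 of these had 0 counts and the median was 1 count over 6 libraries. Of the 10 that could be tested 0 rose and 1 fell, against 6.60% and 5.07% of all 19543 tested features. MIR156c (AT4G31877), a precursor gene of the miR156 family that keeps plants juvenile, had 5.34, 4.70 and 5.65 CPM in fve-8, against 9.46, 7.19 and 8.45 CPM in WT. The genotypes did not overlap, and its log2 fold change was -0.68 ± 0.15 (SE, edgeR adjusted p = 0.0223), a call lost without any 1 WT library (adjusted p = 0.118, 0.0546 and 0.0753), without fve-8 replicate 2 (0.0845) and when scaled by totals alone (0.123). The 10 log2 fold changes ranged from -0.68 to 0.73, with a median of 0.19 beside -0.01 for all tested features.

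Of 90 listed targets of 29 families, 84 could be tested, and 4 fell and 0 rose with edgeR's quasi-likelihood test, where 5.07% of all tested features fell and 6.60% rose, so the share that fell was near that of all features. At an unadjusted p under 0.05, 14 were lower and 4 higher. This split was not set beside that of all features, so nothing is concluded from it. Their median log2 fold change was -0.08, beside -0.01 for all features. Laccase genes, which encode copper oxidases that polymerise lignin and related phenolics and which are targets of miR397, miR408 and miR857, made up 3 of the 4, and were singled out after their values were seen. LAC7 (AT3G09220), a target of miR857, had 11.5, 13.3 and 14.0 CPM in fve-8, against 29.5, 27.3 and 29.2 CPM in WT (log2 fold change -1.15 ± 0.11, SE, edgeR adjusted p = 0.000631), and was called in every alternative. The genotypes were far apart for this gene. LAC4 (AT2G38080, listed in RefSeq as IRX12), a target of miR397, had 16.9, 14.9 and 13.3 CPM in fve-8, against 25.3, 19.7 and 24.3 CPM in WT (-0.62 ± 0.13, adjusted p = 0.0193). LAC3 (AT2G30210), a target of miR408, had 24.4, 30.8 and 23.1 CPM in fve-8, against 37.4, 37.4 and 44.0 CPM in WT (-0.60 ± 0.13, adjusted p = 0.02). Of the other 4 listed laccases, LAC2, LAC17, LAC12 and LAC13 had log2 fold changes of -0.47, -0.55, 1.49 and 0.07 and were not called. LAC17 was called lower without a count filter (-0.56) and without fve-8 replicate 1 (-0.83). LAC12, at 0.529, 3.39 and 2.09 CPM in fve-8 against 0.45, 0.771 and 0.962 CPM in WT, was called higher with library totals (1.83), without a count filter (1.48) and without fve-8 replicate 1 (1.94), and had 0.81 without fve-8 replicate 2 (adjusted p = 0.442). The endodermis gene CASP1 was also lower in fve-8 (-0.71), and its part in the laccase values was not tested. ARF6 (AT1G30330), an auxin response factor gene and a target of miR167, had 26.1, 21.5 and 21.5 CPM in fve-8, against 33.8, 31.2 and 32.3 CPM in WT (-0.49 ± 0.11, adjusted p = 0.0215).

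Except for LAC7, these calls depended on scaling and on single libraries. With library totals in place of TMM the median of all features moved to 0.33 and that of the targets to 0.25, 11 targets were called higher and LAC7 alone lower, and 3 miRNA genes were called higher and 0 lower. The call of LAC4 was lost without fve-8 replicate 2, WT replicate 1 or WT replicate 3 (adjusted p = 0.071, 0.109 and 0.0777), that of LAC3 without any 1 WT library (adjusted p = 0.0772, 0.0764 and 0.0832), and that of ARF6 without fve-8 replicate 2 or any 1 WT library (adjusted p = 0.081, 0.112, 0.0857 and 0.0748). Of the fve-8 libraries, leaving out replicate 1 gave 8 targets lower and 3 higher, replicate 3 gave 8 lower and replicate 2 gave 2 lower. Of the WT libraries, leaving out replicate 2 gave 2 lower, and leaving out either of the others gave 1 lower. The share of all features called in these alternatives was not set beside these counts, so nothing is concluded from them about targets or miRNA genes as groups. Since the miRNA entries carry no names here, a target cannot be matched to the entry that guides its cleavage.

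**Figure D5:**
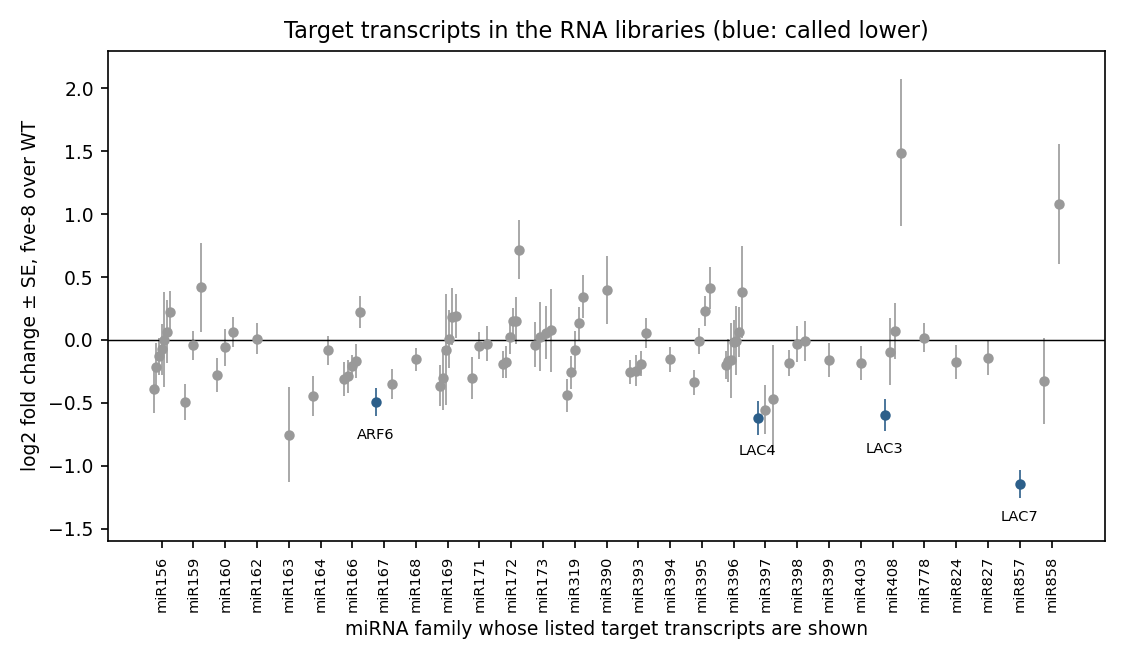
Log2 fold change (fve-8 over WT, points, with SE as bars) of 84 target transcripts in the RNA libraries, 3 per genotype, arranged by the miRNA family that targets them. LAC7, LAC4, LAC3 and ARF6 (blue) were called lower, and the other points (grey) were not called.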

How the data were processed

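Whole seedlings were profiled in 4 small RNA libraries (19 to 24 nt per the series text) and 6 RNA libraries. The authors deposited, per assay, whole-number read counts per feature with their own log2 fold changes and adjusted p-values. Per the submitters' processing notes the tools were TopHat2, SAMtools, HTSeq and edgeR. The sources used here do not give the miRNA release, the strand setting or the treatment of reads matching several entries, so related entries and overlapping genes may share reads. 14 columns of normalized values or group means were not used.

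Near-identical entries were merged as described and represented by the entry with most counts. Each assay was fitted alone on all its features with edgeR 4.0.16 in R 4.3.3 (filterByExpr, TMM, quasi-likelihood test, genotype only, Benjamini-Hochberg adjustment, call at adjusted p under 0.05). Each SE is the log2 fold change divided by the square root of F. Alternatives used limma 3.58.1 and DESeq2 1.42.0. Gene names are RefSeq's (TAIR10.1), which holds 0 of the 428 identifiers.

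Members, lists and the naming rule were chosen with earlier results of these data known. For each direction the rule took up to 12 of the largest changes among called RNAs without genotype overlap and averaging at least 20 CPM. It also took the 12 most abundant RNAs. All 15 called rises are described here, so R13 to R15 lie beyond the rule. Without names, at most 2 identifiers per direction are printed, and family lists could not be formed.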

Additional observations from a re-analysis of the deposited data

How the results depend on the processing

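All 20 called miRNAs kept their direction in each of the 16 alternatives in which they were tested, and 11 of the 15 rises but 0 of the 5 falls were called in every alternative that kept all 4 libraries and tested them. RNAs called lower numbered 3 with upper-quartile scaling, with at least 50 CPM in 2 libraries, with DESeq2 and with a 5% tolerance. Leaving out 1 library gave 2 to 9 called higher and 0 lower. With all 428 entries unmerged 21 were called higher and 6 lower. Replicate numbers did not pair the libraries (correlation of deviations -0.01 for small RNA, -0.01, -0.06 and -0.15 for RNA, where 0 of 3 matched their own number best). With the replicate block 13 miRNAs were called higher and 1 lower, and the calls on targets and miRNA genes did not change. The share of the leading miRNA differed by 0.0866 percentage points, and by -1.21 to 1.39 with 1 library left out. That of the 12 most abundant differed by -2.87 to -0.267. Without a count filter 1 target was called higher and 7 lower. With library totals 11 were higher and 1 lower, and 3 miRNA genes were higher and 0 lower. With 1 library left out, targets called higher ranged from 0 to 3 and lower from 1 to 8, and miRNA genes from 0 to 1 in each direction. These counts of targets and miRNA genes were not set beside the share of all features called in the same alternatives. LAC13 ranged from -0.11 (without fve-8 replicate 3) to 0.29 (without fve-8 replicate 1) with 1 library left out. The cause was not tested for any of these. Alternatives for family lists were not run, since no entry could be named. Depth limits the rarest miRNAs, and 156 RNAs were untested.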
